A study of Drosophila melanogaster with 9 samples.

Results

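Ovary transcripts of Drosophila melanogaster mutant for DPLG1 were compared with those of control flies across all genes of the count tables. The comparison takes the 3 libraries titled as DPLG1 mutants (replicates 22, 5 and 7) and the 3 libraries of the w1118 control strain (replicates 1, 2 and 3), which are 6 of the 9 libraries of the series. The other 3 come from flies mutant for DPLG4 (replicates 15, 3 and 7) and enter the shared estimate of the spread and the values set beside those of DPLG1 mutants. The design sets each mutant against control. Every library was made from total RNA of ovaries of flies kept at 25 degrees, and replicates were biological per the labels. The age of the flies, the kind of lesion, the genetic background of the mutants and the meaning of the title numbers are not stated in the labels.

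DPLG genes derive from transposases of the PIF family of DNA transposons that the fly genome has kept as genes of its own. A transposase cuts a transposon out of DNA and inserts it elsewhere, and several unrelated transposases have become DNA-binding proteins of their hosts. The Drosophila ovary is a set of ovarioles in which germline stem cells give rise to nurse cells and an oocyte, and a layer of somatic follicle cells wraps each egg chamber and secretes the eggshell.

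The files hold 17559 genes, of which 13404 had a count in some library and 8427 passed the filter on low counts and were tested. Gene counts ranged from 44654859 to 83830254 in the DPLG1 mutant libraries and from 18078883 to 93767502 in the control libraries. Levels are given as CPM (counts per 1000000 counts of tested genes, scaled by TMM), and a list of values follows the replicate order 22, 5 and 7 for DPLG1 mutants and 1, 2 and 3 for controls. In control replicate 1, 70.7% of all reads did not align uniquely, against 7.61% to 10% in the other 8 libraries. That library also stood apart from the other controls in the dependence of its values on transcript length, so results that rest on it are given with and without it. Markers of the labelled tissue were present. The 12 germline identity genes summed to 16850, 14130 and 15750 CPM in the DPLG1 mutant libraries, against 15600, 14480 and 13560 CPM in the control libraries.

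The targeted gene was all but absent from the mutants. CG12253 (FBgn0026148), the symbol under which the files hold DPLG1, codes for a protein and lies on the plus strand of arm 2L from 10987806 to 10989241 (BDGP6.54). Its counts were 0, 0 and 1 in the DPLG1 mutant libraries, against 1627, 5550 and 943 counts in the control libraries. The summed control level was 10980 times the mutant level, with a 95% exact interval of 1971 to 433900 that covers counting error only (edgeR adjusted p = 1.13e-06). The other family members were not called by edgeR. CG7492, which is DPLG4, had 71.3, 106 and 95.2 CPM in the DPLG1 mutant libraries, against 114.8, 145 and 167 CPM in the control libraries. All 3 mutant values lay below the control values, but the difference did not pass the test (log2 fold change -0.65, SE 0.17, edgeR adjusted p = 0.258). It did pass the Wald test of DESeq2 (adjusted p = 0.0359). CG32095, which is DPLG3, had 56.4, 57.6 and 62.1 CPM in the DPLG1 mutant libraries, against 50.01, 53.02 and 49.5 CPM in the control libraries (log2 fold change 0.21, edgeR adjusted p = 0.297). CG32187, which is DPLG2, had no count in the DPLG1 mutant libraries and 0, 3 and 0 counts in the control libraries, and was not tested. On the opposite strand, CG7492 overlaps CG32373 and PGRP-SD, and CG32095 overlaps RpL10Ab.

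Few single genes separated DPLG1 mutant from control ovaries, and many small differences did. With the quasi-likelihood test of edgeR, 9 of 8427 genes had an adjusted p under 0.05, which is 0.107% of tested genes, with 5 higher (0.0593%) and 4 lower (0.0475%) in DPLG1 mutants. Before adjustment, 601 genes were higher (7.13%) and 830 lower (9.85%) at a p under 0.05. In 1335 genes (15.8%) every DPLG1 mutant value lay above every control value, and in 1173 (13.9%) every mutant value lay below, together 29.8% of tested genes. The Wald test of DESeq2 gave an adjusted p for 8076 genes and called 129 higher (1.60%) and 146 lower (1.81%). A log2 fold change over 1 was found in 263 genes (3.12%) and under -1 in 125 (1.48%). A positive value was found in 51.6% of genes, and the median over all tested genes was 0.014. The balance depended on the scaling. With upper quartile scaling the median of all genes was 0.15, an unadjusted p under 0.05 was found for 1018 genes above control and 615 below, and 1989 lay wholly above and 801 wholly below control. Medians of gene classes are therefore read against that of all genes.

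Libraries of different groups were little further apart than replicates. The median absolute log2 difference between 2 libraries was 0.105 to 0.259 within the DPLG1 mutants and 0.137 to 0.357 within the controls. Between a DPLG1 mutant and a control library it was 0.178 to 0.461. DPLG1 mutant replicates 5 and 7 lay closer to DPLG4 mutant replicate 3, at 0.116 and 0.118, than to DPLG1 mutant replicate 22, at 0.259 and 0.193.

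The genes that rose in DPLG1 mutant ovaries were Arc1, Arc2, Drep4 and the unnamed identifiers FBgn0042174 and FBgn0029128. Arc1, a gag-derived gene whose protein forms capsids that carry RNA between cells, had 129, 153 and 109.7 CPM in the DPLG1 mutant libraries, against 20.5, 30.6 and 31.7 CPM in the control libraries (log2 fold change 2.24, SE 0.19, edgeR adjusted p = 0.00152). Arc2, its neighbour on arm 2R, had 26.3, 23.9 and 21.9 CPM in the DPLG1 mutant libraries, against 6.91, 7.29 and 7.499 CPM in the control libraries (log2 fold change 1.73, SE 0.15, edgeR adjusted p = 0.00152). For neither gene did the groups overlap. The DPLG4 mutant libraries held values near those of the controls, with 20.5, 18.8 and 18.8 CPM for Arc1 and 9.24, 7.37 and 6.69 CPM for Arc2. Drep4, of the Drep family of DNA fragmentation factors, had 28.1, 25.4 and 28.3 CPM in the DPLG1 mutant libraries, against 8.70, 11.8 and 11.9 CPM in the control libraries (log2 fold change 1.33, SE 0.15, edgeR adjusted p = 0.0152). Its 3 mutant values were all more than any control value, and it overlaps CG44085 and asRNA:CR44083 on the opposite strand.

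FBgn0042174, to which the annotation gives no name or position, had 196, 194 and 205.3 CPM in the DPLG1 mutant libraries, against 42.2, 37.8 and 34.5 CPM in the control libraries (log2 fold change 2.38, SE 0.10, edgeR adjusted p = 1.47e-05). Its DPLG4 mutant values of 121, 114 and 125 CPM lay between the 2 other groups, and the difference between the mutants passed the test (log2 fold change 0.73, edgeR adjusted p = 0.0122). FBgn0029128, also unnamed, had 2.53, 3.31 and 3.25 CPM in the DPLG1 mutant libraries, against 0.767, 0.964 and 0.973 CPM in the control libraries (log2 fold change 1.74, SE 0.23, edgeR adjusted p = 0.0402). The groups did not overlap, and its difference from the DPLG4 mutant did not pass the test (log2 fold change 0.85, edgeR adjusted p = 0.223).

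The genes that fell were CG12253 and 3 weakly expressed genes of arm 2L. CG16957 (minus strand, 13395360 to 13396184) had 0.142, 0.0575 and 0.0889 CPM in the DPLG1 mutant libraries, against 3.37, 3.11 and 2.63 CPM in the control libraries (log2 fold change -4.89, SE 0.39, edgeR adjusted p = 0.00152). The antisense transcript asRNA:CR45330 (plus strand, 13241807 to 13244724) had 0.178, 0.172 and 0.200 CPM in the DPLG1 mutant libraries, against 2.34, 1.47 and 1.77 CPM in the control libraries (log2 fold change -3.32, SE 0.28, edgeR adjusted p = 0.00152). It overlaps asRNA:CR46479 and snRNA:U2:34ABc on the opposite strand, and the strand setting of the counting is not stated in the labels. Adh, the alcohol dehydrogenase gene (plus strand, 14615552 to 14618902), was counted 1, 0 and 0 times in the DPLG1 mutant libraries, against 4, 38 and 6 times in the control libraries (edgeR adjusted p = 0.0257). It overlaps osp on the opposite strand and Adhr on the same strand. The control level of Adh was 64.9 times the mutant level, with a 95% exact interval of 11.1 to 2617. The DPLG4 mutant libraries, with 6.15, 5.06 and 3.15 CPM for CG16957, 1.98, 1.93 and 1.48 CPM for asRNA:CR45330 and 0.396, 0.352 and 0.472 CPM for Adh, were not low for these genes. Under the 16 other settings tried, 6 of the 9 calls held in each, while Drep4 was called under 11 of 16, Adh under 7 of 14 and FBgn0029128 under 7 of 16.

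**Figure D1:**
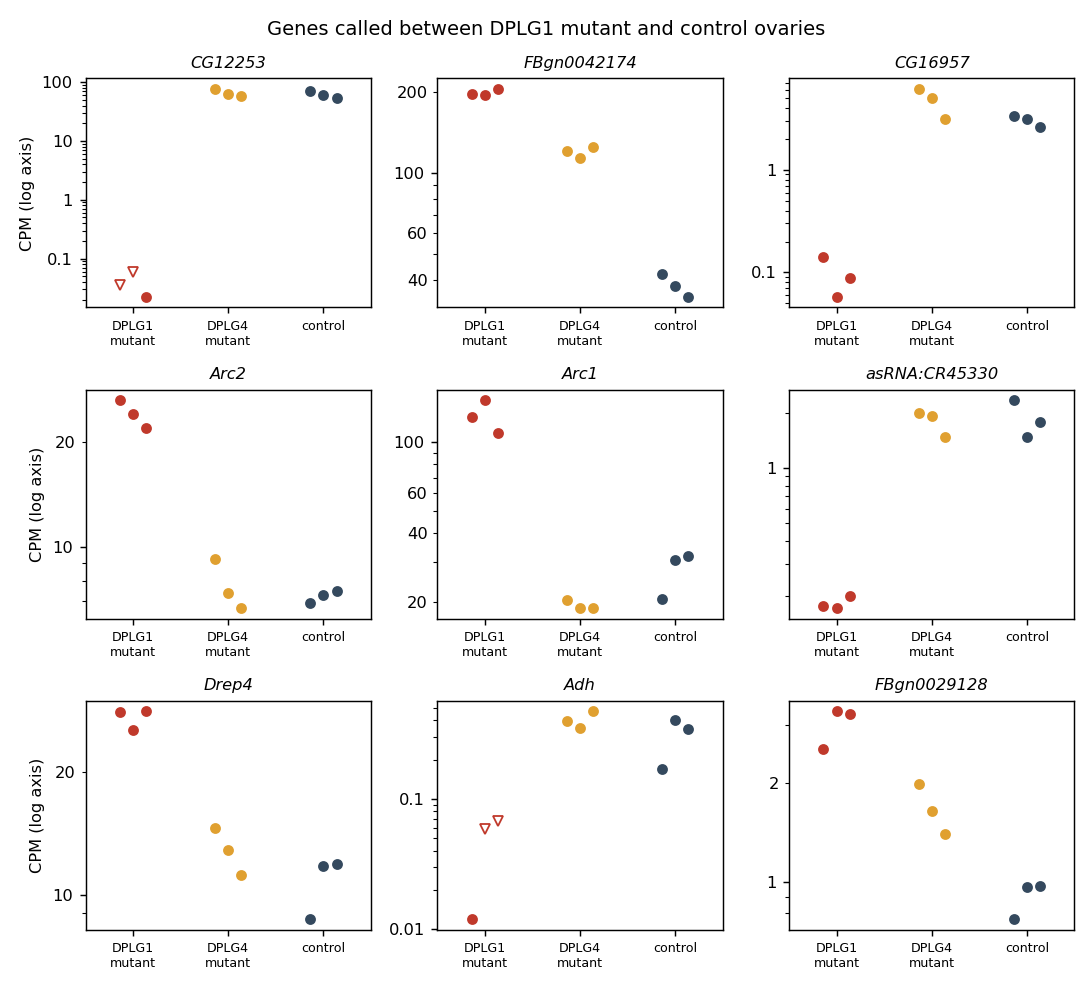
CPM (log axis) of the 9 called genes in each library, with DPLG1 mutant, DPLG4 mutant and control libraries from left to right in replicate order 22, 5, 7, then 15, 3, 7, then 1, 2, 3. An open triangle marks a library with no count, drawn at the level of 3 counts. For each gene the DPLG1 mutant values do not overlap the control values.

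Beyond the calls, genes were taken in order of their unadjusted p among those with a mean log2 CPM of at least 1 and no overlap between the groups. Among the 10 highest placed genes above control was bam, which turns the daughters of germline stem cells towards differentiation. It had 65.3, 62.3 and 58.2 CPM in the DPLG1 mutant libraries, against 34.7, 37.4 and 35.3 CPM in the control libraries, so that the groups were well apart, and it missed the threshold (log2 fold change 0.79, SE 0.11, edgeR adjusted p = 0.0588). escl, a subunit of the Polycomb complex that methylates histone H3, had 27.2, 26.0 and 25.0 CPM in the DPLG1 mutant libraries, against 17.7, 17.6 and 17.6 CPM in the control libraries (log2 fold change 0.56, edgeR adjusted p = 0.109). tra2, a splicing regulator of the sex determination pathway, had 32.1, 32.4 and 34.3 CPM in the DPLG1 mutant libraries, against 19.1, 23.3 and 20.9 CPM in the control libraries (log2 fold change 0.64, edgeR adjusted p = 0.134). The group also held Idgf2, a secreted chitinase-like growth factor, with 81.6, 68.8 and 92.1 CPM in the DPLG1 mutant libraries, against 47.8, 49.8 and 48.5 CPM in the control libraries (log2 fold change 0.73, edgeR adjusted p = 0.227). The other 6 were CG6330, lncRNA:CR45472, Hacd2, CG11961, asRNA:CR44599 and Uhg5, with log2 fold changes of 0.50 to 1.16 and adjusted p of 0.134 to 0.227. On the opposite strand, bam overlaps CG11854, tra2 Blos1, Idgf2 CG5888, Hacd2 CG42784 and asRNA:CR44599 loqs.

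Among the genes below control in this order, qkr58E-1, eIF4H1 and SmD3 act on RNA. qkr58E-1, a KH-domain RNA-binding protein, had 43.0, 46.9 and 45.6 CPM in the DPLG1 mutant libraries, against 94.5, 75.6 and 86.6 CPM in the control libraries (log2 fold change -0.92, SE 0.14, edgeR adjusted p = 0.0624). eIF4H1, a translation initiation factor, had 189, 211 and 211 CPM in the DPLG1 mutant libraries, against 329, 305 and 347 CPM in the control libraries (log2 fold change -0.68, edgeR adjusted p = 0.103). SmD3, a core protein of the spliceosomal snRNPs, had 72.7, 93.1 and 86.8 CPM in the DPLG1 mutant libraries, against 153, 126 and 146 CPM in the control libraries (log2 fold change -0.75, edgeR adjusted p = 0.109). In each of these 3 genes the groups were apart, and the difference between DPLG1 and DPLG4 mutants did not pass the test (edgeR adjusted p from 0.224 to 0.847). On the opposite strand, qkr58E-1 overlaps PolE4, and SmD3 overlaps Oda and asRNA:CR46194.

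dao, Ih, CG2162, yki, vsg and chas were also among the genes below control. dao, on arm 2L, had 1.20, 0.939 and 0.734 CPM in the DPLG1 mutant libraries, against 3.92, 4.12 and 4.18 CPM in the control libraries (log2 fold change -2.08, SE 0.30, edgeR adjusted p = 0.0588). Ih, a hyperpolarization-activated cation channel, had 3.29, 2.66 and 6.49 CPM in the DPLG1 mutant libraries, against 18.0, 14.4 and 16.03 CPM in the control libraries (log2 fold change -1.97, edgeR adjusted p = 0.0810). yki, the transcriptional coactivator held in check by the Hippo pathway, had 43.8, 54.7 and 53.9 CPM in the DPLG1 mutant libraries, against 88.4, 82.5 and 91.5 CPM in the control libraries (log2 fold change -0.78, edgeR adjusted p = 0.109). CG2162, vsg and chas had log2 fold changes of -0.70, -0.53 and -0.94 with adjusted p of 0.106 to 0.109. None of the genes named here from either direction passed the test, while each passed under DESeq2 (adjusted p at most 0.00376).

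Of the 9 calls, 5 lie on arm 2L, which holds 1450 of the 8427 tested genes, and 2 have no position. Apart from CG12253 itself, the calls on 2L lie 2.25 to 3.63 Mb from it on 1 side. Within 2 to 5 Mb of CG12253 on either side, 26 of 381 tested genes (6.82%) had more than a 2-fold difference. Off arm 2L, a set that includes the 179 tested genes without a position, 315 of 6977 (4.51%) had. Over 5 Mb away on 2L the share was 4.36%. In the same bins the share of genes whose groups did not overlap was 29.9% at 2 to 5 Mb, 28.8% beyond and 29.8% off the arm. In the megabase from 14 to 15 Mb, 8 of 20 tested genes were past an unadjusted p of 0.05 (40%), and in the megabase from 13 to 14 Mb 20 of 78 were (25.6%). Both megabases hold called genes and were picked with their values known. Off arm 2L the share was 17%, and over the whole 2 to 5 Mb range it was 17.8%. Some megabases elsewhere had shares of the same size, such as 34.6% of 26 genes from 6 to 7 Mb on 3R and 35.7% of 14 genes from 23 to 24 Mb on the X.

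Most of the few immediate neighbours of CG12253 had positive values. Within 100 kb, 12 genes were tested and 9 had a positive value, where 51.6% of all tested genes did. Of these 12, 5 lay apart above control and 1 apart below, where 15.8% and 13.9% of all tested genes did. None was called. piwi, the nuclear piRNA-binding protein of germline and soma, had 255, 225 and 244 CPM in the DPLG1 mutant libraries, against 184, 191 and 171 CPM in the control libraries (log2 fold change 0.40, edgeR adjusted p = 0.227). ATPsynG, a subunit of the mitochondrial ATP synthase, had 349.7, 278 and 305 CPM in the DPLG1 mutant libraries, against 223, 221 and 195 CPM in the control libraries (log2 fold change 0.55, edgeR adjusted p = 0.276). abo, a regulator of histone genes, had 19.2, 19.9 and 20.8 CPM in the DPLG1 mutant libraries, against 17.7, 14.98 and 12.4 CPM in the control libraries (log2 fold change 0.41, edgeR adjusted p = 0.276).

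**Figure D2:**
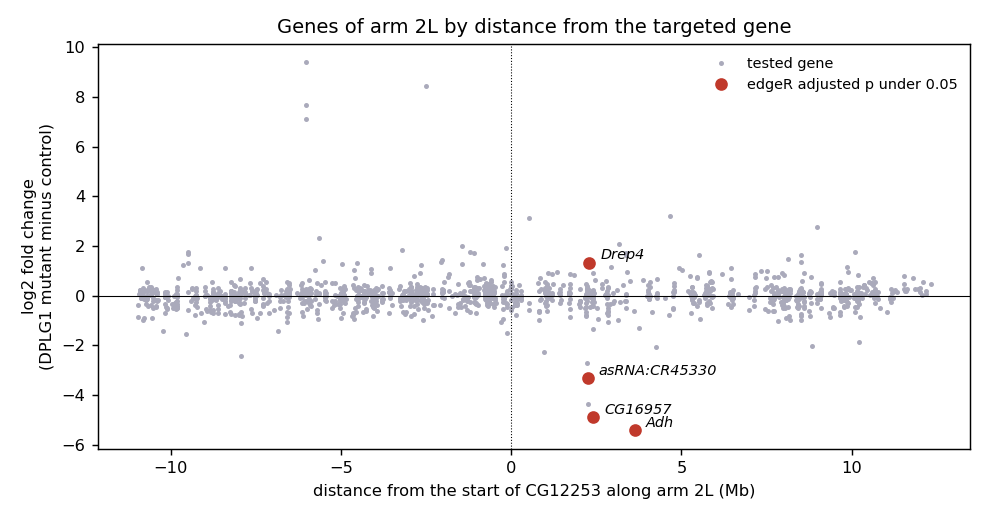
Log2 fold change (DPLG1 mutant minus control) of tested genes of arm 2L against the distance of their start from that of CG12253 in Mb, with CG12253 itself left out. The 4 called genes, in red, lie between 2.25 and 3.63 Mb to the right.

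Across all genes the clearest ordering was by transcript length. Tested genes with an annotation were split into quintiles by exon length. In the shortest quintile, 72.9% of 1650 genes had a positive log2 fold change and the median was 0.14. In the longest quintile, of 4080 to 71820 bases, 23.6% were positive and the median was -0.34. The 3 quintiles between had medians of 0.12, 0.019 and -0.10. Genes lying apart below control made up 2.85% of the shortest quintile and 28.5% of the longest, against 13.9% of all tested genes. Those lying apart above made up 20.9% and 4.18%, against 15.8% of all tested genes.

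Single libraries did not follow their groups in this ordering. The median deviation of the longest quintile from the mean of the 9 libraries was -0.36, -0.091 and -0.073 (log2 CPM) in the DPLG1 mutant libraries, against -0.088, 0.25 and 0.36 in the control libraries. Control replicate 1 lay within the mutant range, so the groups overlapped, and the other 2 controls lay above it. For the shortest quintile the medians were 0.17, -0.047 and 0.034 in the DPLG1 mutant libraries, against 0.10, -0.17 and -0.24 in the control libraries. The DPLG4 mutant libraries spanned -0.34, -0.035 and 0.28 for the longest quintile, nearly as wide as the 2 other groups together. Without control replicate 1 the median log2 fold change of the longest quintile was -0.43, and without control replicate 3 it was -0.26. The shortest quintile had a median of 0.28 when control replicate 1 was left out and 0.072 when control replicate 3 was. Leaving out DPLG1 mutant replicate 22 gave 0.080. The part of RNA quality or library preparation in this ordering was not tested.

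A further fit removed a smooth trend on exon length from each library. The medians of the 5 quintiles then lay between 0.0095 and 0.034. All 9 calls were kept, and 10 more genes passed the threshold, giving 11 higher and 8 lower. Among the added genes were bam (log2 fold change 0.77, edgeR adjusted p = 0.0264), escl (0.53, adjusted p = 0.0466) and lncRNA:CR45472 (1.03, adjusted p = 0.0111) above control. qkr58E-1 (-0.84, adjusted p = 0.0218), CG2162 (-0.64, adjusted p = 0.0111), vsg (-0.50, adjusted p = 0.0367) and CG9132 (-0.61, adjusted p = 0.0367) were below. clu, Orai and UK114, all above control, completed the 10. Without control replicate 1 this fit called 6 higher and 6 lower.

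**Figure D3:**
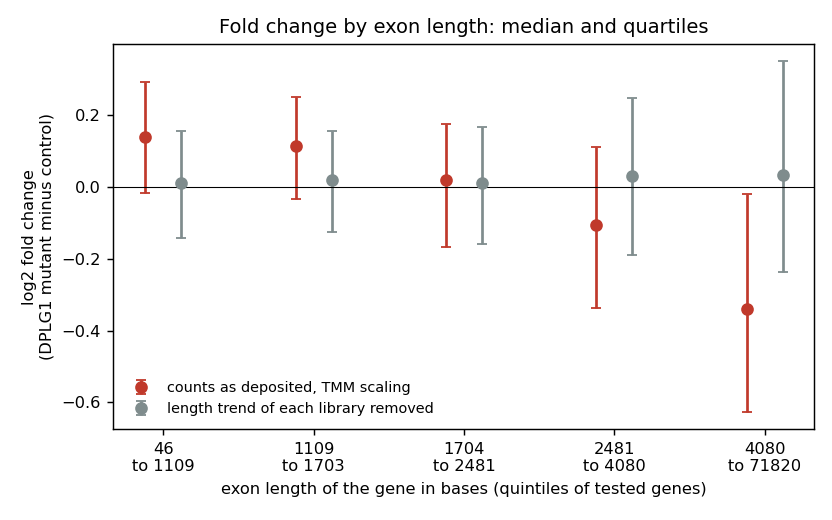
Median (point) and quartiles (bar) of the log2 fold change (DPLG1 mutant minus control) in quintiles of tested genes by exon length in bases, in red for TMM scaling and in grey with the length trend of each library removed. The red medians run from 0.14 in the shortest to -0.34 in the longest quintile, and the grey medians stay between 0.0095 and 0.034.

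Chromosomes differed in their balance. On chromosome 4, a small and largely heterochromatic chromosome, 59 of 77 tested genes (76.6%) had a positive value and the median was 0.20. On the X chromosome 40.1% of 1468 genes were positive, with a median of -0.10, and on the arms of chromosomes 2 and 3 the shares were 52.6% to 55.6%. On chromosome 4, 16 genes (20.8%) lay apart above control and 2 (2.60%) apart below. On the X, 170 (11.6%) lay apart above and 302 (20.6%) apart below. Of all tested genes 15.8% lay apart above and 13.9% below. No gene of either chromosome was called.

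Genes of chromosome 4 are long, and their values did not follow the ordering by length. The median exon length was 4340 bases on chromosome 4 and 2330 on the X, against 2060 over all tested genes. With the length trend removed, the median was 0.41 on chromosome 4 and -0.046 on the X. The chromosome 4 median also depended on single libraries. Without DPLG1 mutant replicate 22 it was 0.10, and without control replicate 3 it was 0.12. Within the longest quintile, the median was 0.18 for the 40 genes of chromosome 4, -0.33 for 1249 genes of chromosomes 2 and 3 and -0.44 for 361 genes of the X. Upper quartile scaling gave 0.042 for the X, against 0.15 for all genes.

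The libraries of the groups overlapped on both chromosomes. For chromosome 4 the median deviation was 0.23, -0.067 and 0.12 (log2 CPM) in the DPLG1 mutant libraries, against 0.0078, -0.060 and -0.20 in the control libraries. DPLG1 mutant replicate 5 lay within the control range. For the X it was -0.11, -0.019 and -0.045 in the DPLG1 mutant libraries, against -0.023, 0.041 and 0.10 in the control libraries, with control replicate 1 within the mutant range. Among single genes of chromosome 4, Cals, a calcium-binding cadherin of the calsyntenin type, had 151, 129 and 132 CPM in the DPLG1 mutant libraries, against 106, 103 and 91.8 CPM in the control libraries (log2 fold change 0.45, edgeR adjusted p = 0.240). CG11155, a kainate-type glutamate receptor subunit, had 6.20, 4.62 and 4.60 CPM in the DPLG1 mutant libraries, against 3.41, 2.98 and 2.52 CPM in the control libraries (log2 fold change 0.79, edgeR adjusted p = 0.254).

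**Figure D4:**
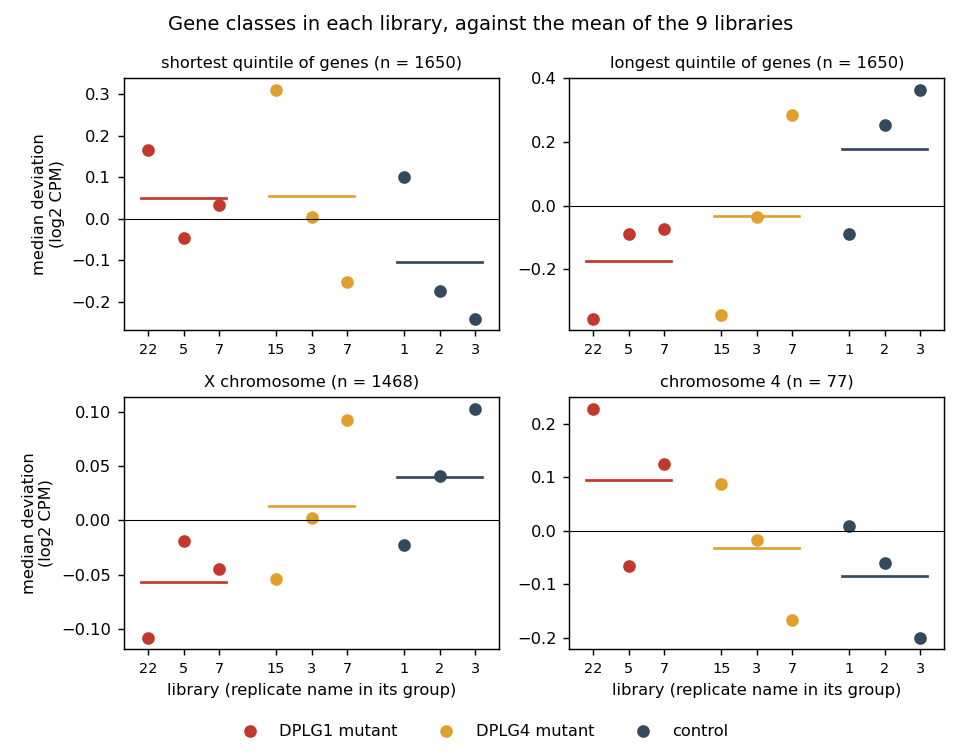
Median deviation of a gene class from the mean of the 9 libraries (log2 CPM) in each library, with lines at group means, for the shortest and longest quintile of genes by exon length, the X chromosome and chromosome 4. Control replicate 1 lies with the DPLG1 mutant libraries in the longest quintile, at -0.088, while control replicates 2 and 3 lie at 0.25 and 0.36.

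The list of ovary genes that stood furthest from all tested genes was that of the chorion, the outer eggshell secreted by follicle cells late in oogenesis. All 16 tested members had a positive value, 11 lay apart above control (68.8%, against 15.8% of all genes), and the median was 1.52, against 0.014 over all genes. Their summed level was 1151, 1582 and 2121 CPM in the DPLG1 mutant libraries, against 855, 632 and 341 CPM in the control libraries. The groups did not overlap, with the lowest mutant sum in replicate 22 and the highest control sum in replicate 1. None of the 16 was called by edgeR, and 7 were called by DESeq2, which called 1.60% of all genes higher. In whole ovaries, a difference in the number of cells of a type and one in RNA per cell cannot be told apart.

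Single chorion genes showed the same spread. Cp36, a major chorion protein of the X-linked amplified cluster, had 319.5, 361 and 334 CPM in the DPLG1 mutant libraries, against 151, 120.2 and 57.2 CPM in the control libraries (log2 fold change 1.63, SE 0.38, edgeR adjusted p = 0.229). Cp16, of the cluster on chromosome 3, had 33.7, 101 and 106 CPM in the DPLG1 mutant libraries, against 19.4, 31.4 and 13.4 CPM in the control libraries (log2 fold change 1.89, edgeR adjusted p = 0.235). yellow-g, a yellow-family gene of the eggshell, had 29.9, 25.2 and 19.9 CPM in the DPLG1 mutant libraries, against 8.87, 8.17 and 4.35 CPM in the control libraries (log2 fold change 1.79, edgeR adjusted p = 0.240). The median of the list was 1.16 without control replicate 3 and 1.90 without control replicate 1, and 1.46 with the length trend removed. The DPLG4 mutant libraries also summed high, at 1940, 2549 and 1485 CPM, and the median difference between the mutants was 0.18.

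The other lists of follicle cell genes had medians below that of all genes. Of 11 vitelline membrane genes, which form the inner eggshell and are made earlier, 3 had a positive value and the median was -0.21. They summed to 444, 590 and 715 CPM in the DPLG1 mutant libraries, against 694, 668 and 512 CPM in the control libraries, and the groups overlapped. Of 11 follicle cell genes 3 were positive, with a median of -0.15, and Yp2, a yolk protein gene, had 116, 129.9 and 180.1 CPM in the DPLG1 mutant libraries, against 229, 166 and 147 CPM in the control libraries (log2 fold change -0.35, edgeR adjusted p = 0.372). Both medians changed sign when control replicate 1 was left out, to 0.088 and 0.13. The germline identity genes had a median of 0.040, and among them otu, needed for germ cell differentiation, had 392.3, 471 and 472 CPM in the DPLG1 mutant libraries, against 502, 561 and 586 CPM in the control libraries (log2 fold change -0.30, edgeR adjusted p = 0.310).

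Genes of the piRNA pathway, which silences transposons in the germline, were balanced. Of 32 tested members 20 had a positive value and the median was 0.029. In each direction 6 (18.8%) lay apart, against 15.8% of all genes above and 13.9% below. Besides piwi, Hen1, which methylates piRNA ends, had 54.1, 42.5 and 49.98 CPM in the DPLG1 mutant libraries, against 36.8, 37.9 and 35.2 CPM in the control libraries (log2 fold change 0.41, edgeR adjusted p = 0.276). BoYb, a Tudor-domain protein of piRNA biogenesis, had 38.6, 38.8 and 41.6 CPM in the DPLG1 mutant libraries, against 48.6, 48.6 and 46.1 CPM in the control libraries (log2 fold change -0.27, edgeR adjusted p = 0.276). Of the transposon-derived genes other than the DPLG family, Arc1 and Arc2 were called, while cag, of a pogo-type transposase, had 25.5, 22.5 and 24.9 CPM in the DPLG1 mutant libraries, against 24.4, 19.6 and 20.1 CPM in the control libraries and Iris, from a retroviral envelope, had 1.96, 1.38 and 1.40 CPM in the DPLG1 mutant libraries, against 1.24, 1.70 and 1.55 CPM in the control libraries. Both of these overlapped between the groups.

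Genes of the cytosolic ribosome were nearly all above control. In total 77 of 80 tested members had a positive log2 fold change and the median was 0.30, with 40 apart above control, which is 50% against 15.8% of all genes, and none apart below. Their summed level was 127600, 107900 and 105000 CPM in the DPLG1 mutant libraries, against 99830, 93600 and 86990 CPM in the control libraries, and the groups did not overlap. None was called by edgeR and 1 of the 80 by DESeq2, which called 1.60% of all genes higher. The ribosomal genes have short transcripts, with a median of 910 bases. The median log2 fold change was 0.17 with the length trend removed and 0.12 without control replicate 1 as well. Without DPLG1 mutant replicate 22 alone it was 0.18. RpS5b, the germline-enriched paralog of RpS5a, had 793, 705 and 634 CPM in the DPLG1 mutant libraries, against 473, 576 and 531 CPM in the control libraries (log2 fold change 0.43, edgeR adjusted p = 0.266). RpL8, of the large subunit, had 1524, 1521 and 1331 CPM in the DPLG1 mutant libraries, against 1019, 1185 and 1230.1 CPM in the control libraries (log2 fold change 0.35, edgeR adjusted p = 0.269). The DPLG4 mutant libraries summed to 143100, 114100 and 102500 CPM.

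The other lists of the translation machinery had medians closer to that of all genes. Of 33 initiation factors 22 had a positive value, with a median of 0.087. Of them 9 (27.3%) lay apart above and 2 (6.06%) apart below, against 15.8% and 13.9% of all genes. eIF3i, a subunit of the scaffold factor eIF3, had 442, 409 and 407 CPM in the DPLG1 mutant libraries, against 337, 358 and 352 CPM in the control libraries (log2 fold change 0.26, edgeR adjusted p = 0.276), opposite in direction to eIF4H1. Of 9 elongation and termination genes 7 were positive, and of 18 aminoacyl-tRNA synthetases 12 were, with medians of 0.10 and 0.068. Ribosome biogenesis genes were balanced, with 13 of 30 positive. Nopp140, a nucleolar phosphoprotein, had 149, 194 and 199 CPM in the DPLG1 mutant libraries, against 208, 265 and 329 CPM in the control libraries (log2 fold change -0.56, edgeR adjusted p = 0.291).

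The proteasome and the respiratory chain, also lists of short genes, leaned upwards. Of 32 proteasome genes 23 were positive, 14 (43.8%, against 15.8% of all genes) lay apart above control and the median was 0.16. Prosbeta4, a subunit of the core particle, had 465, 400.3 and 424 CPM in the DPLG1 mutant libraries, against 333, 328 and 308 CPM in the control libraries (log2 fold change 0.41, edgeR adjusted p = 0.276). Of 45 nuclear genes of the respiratory chain 37 were positive, 17 (37.8%, against the same 15.8%) lay apart above and none below, with a median of 0.14. ATPsynbeta, the catalytic subunit of the ATP synthase and a gene of chromosome 4, had 2179, 1833 and 1942 CPM in the DPLG1 mutant libraries, against 1513, 1624 and 1469.8 CPM in the control libraries (log2 fold change 0.37, edgeR adjusted p = 0.269). Once the length trend was removed the medians were 0.041 and 0.025. Without control replicate 3 the respiratory chain median was 0.085.

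All 15 tested genes of the mitochondrial genome had a positive value, with a median of 0.50. That value rests in part on control replicate 1, whose median deviation was -1.55 (log2 CPM), against 0.011 and 0.19 in the other controls. Without that library the median was 0.17. mt:CoII, a subunit of cytochrome oxidase, had 2143, 1532 and 1964 CPM in the DPLG1 mutant libraries, against 1362, 1391 and 1438 CPM in the control libraries (log2 fold change 0.43, edgeR adjusted p = 0.281).

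The list of mRNA decay had a median below that of all genes. Of its 29 genes 8 had a positive value, 10 (34.5%) lay apart below control, against 13.9% of all genes, and the median was -0.25. Their median exon length was 3920 bases, and the median log2 fold change with the length trend removed was -0.088. smg, the repressor that clears maternal transcripts in the early embryo, had 941, 1320.1 and 1367 CPM in the DPLG1 mutant libraries, against 1807, 2084 and 2382 CPM in the control libraries (log2 fold change -0.79, SE 0.23, edgeR adjusted p = 0.269). Not1, the scaffold of the deadenylase complex, had 253, 338 and 353 CPM in the DPLG1 mutant libraries, against 436, 551 and 599 CPM in the control libraries (log2 fold change -0.75, edgeR adjusted p = 0.269). Pop2, a deadenylase of the same complex with a shorter transcript, had 193, 212 and 209.7 CPM in the DPLG1 mutant libraries, against 264, 235 and 232 CPM in the control libraries (log2 fold change -0.25, edgeR adjusted p = 0.276).

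Of 33 spliceosome genes 13 were positive, with a median of -0.10. In each direction 3 (9.09%) lay apart, against 15.8% of all genes above and 13.9% below. Of 18 small nuclear RNAs 3 were positive and the median was -0.98, but none lay apart below control and none was called. Nuclear pore genes were balanced, with 13 of 27 positive and a median of -0.021. Nup153, of the nuclear basket, had 132, 191 and 196 CPM in the DPLG1 mutant libraries, against 203, 319 and 373 CPM in the control libraries (log2 fold change -0.79, edgeR adjusted p = 0.283), while Nup133, of the scaffold, had 169, 167 and 164 CPM in the DPLG1 mutant libraries, against 143, 152 and 138 CPM in the control libraries (log2 fold change 0.21, edgeR adjusted p = 0.278). Mediator genes had a median of -0.002, with 14 of 28 positive.

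Lists of chromatin genes, also of long transcripts, had medians below that of all genes. Of 39 Polycomb and heterochromatin genes 11 were positive and 9 (23.1%, against 13.9% of all genes) lay apart below, with a median of -0.22, which was -0.14 without DPLG1 mutant replicate 22. jing, a zinc-finger cofactor, had 25.6, 36.2 and 40.9 CPM in the DPLG1 mutant libraries, against 47.6, 66.7 and 95.7 CPM in the control libraries (log2 fold change -1.03, edgeR adjusted p = 0.276), and ph-d, a Polycomb subunit, had 13.9, 19.5 and 22.1 CPM in the DPLG1 mutant libraries, against 25.0, 32.7 and 42.6 CPM in the control libraries (log2 fold change -0.85, edgeR adjusted p = 0.276). escl was the member with the smallest p, in the other direction. Of 26 chromatin remodelling genes 10 were positive, with a median of -0.28. brm, the ATPase of the SWI/SNF complex, had 82.8, 123 and 134 CPM in the DPLG1 mutant libraries, against 156, 211 and 280.1 CPM in the control libraries (log2 fold change -0.93, edgeR adjusted p = 0.276), and Bap170, of the same complex, had 61.1, 106 and 111 CPM in the DPLG1 mutant libraries, against 132, 179 and 253 CPM in the control libraries (log2 fold change -1.02, edgeR adjusted p = 0.277). Of 20 insulator genes 7 were positive, with a median of -0.17. With the length trend removed the 3 medians were -0.13, -0.11 and -0.034.

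Most signalling lists had medians below that of all genes. Of 19 genes of the Hippo pathway, which limits growth by restraining yki, 4 had a positive value, 9 (47.4%, against 13.9% of all genes) lay apart below and none above, and the median was -0.52. It was -0.32 without control replicate 3 and -0.69 without control replicate 1. Besides yki, the upstream regulator kibra had 25.0, 36.7 and 36.6 CPM in the DPLG1 mutant libraries, against 50.1, 60.1 and 67.7 CPM in the control libraries (log2 fold change -0.85, edgeR adjusted p = 0.276) and dco, a casein kinase, had 190.2, 273 and 270.0 CPM in the DPLG1 mutant libraries, against 343, 408 and 506 CPM in the control libraries (log2 fold change -0.78, edgeR adjusted p = 0.276). The groups were apart in all 3 genes. With the length trend removed the median of the list was -0.17, and yki itself, a gene of 1525 bases, stood at -0.86.

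Of 11 JAK-STAT genes, a pathway that specifies polar and border cells, 2 were positive and 6 (54.5%, against 13.9% of all genes) lay apart below, with a median of -0.28. hop, the Janus kinase, had 64.8, 96.9 and 99.2 CPM in the DPLG1 mutant libraries, against 110.0, 159 and 198 CPM in the control libraries (log2 fold change -0.84, edgeR adjusted p = 0.277). Of 17 Notch pathway genes 7 were positive and 6 (35.3%) lay apart below, with a median of -0.29. neur, the ubiquitin ligase that activates Notch ligands, had 27.4, 34.5 and 42.9 CPM in the DPLG1 mutant libraries, against 59.5, 53.8 and 64.1 CPM in the control libraries (log2 fold change -0.76, SE 0.17, edgeR adjusted p = 0.227). Of 22 Wnt and Hedgehog genes 5 were positive, with a median of -0.35. In each direction 2 (9.09%) lay apart, against 15.8% of all genes above and 13.9% below. After removal of the length trend these 3 medians were -0.067, -0.015 and -0.041. The Notch median was -0.16 without DPLG1 mutant replicate 22, and that of Wnt and Hedgehog genes was -0.19 without control replicate 3.

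EGFR-Ras and BMP genes lay nearer to all genes, with medians of -0.12 and -0.050, or 0.0059 and 0.16 with the length trend removed. kek1, a feedback inhibitor of the EGF receptor in follicle cells, had 3.62, 3.26 and 3.65 CPM in the DPLG1 mutant libraries, against 2.26, 1.95 and 1.72 CPM in the control libraries (log2 fold change 0.83, edgeR adjusted p = 0.276). Of 16 ecdysone signalling genes 4 were positive, with a median of -0.30, and usp, the partner of the ecdysone receptor, had 64.9, 93.9 and 92.98 CPM in the DPLG1 mutant libraries, against 113, 131 and 175 CPM in the control libraries (log2 fold change -0.73, edgeR adjusted p = 0.276). Of 21 insulin and nutrient genes 5 were positive, with a median of -0.26. With the length trend removed the ecdysone median changed sign, to 0.020, and the insulin median was -0.017. The ecdysone median was -0.17 without DPLG1 mutant replicate 5, and the insulin median was -0.15 without DPLG1 mutant replicate 22. Myc, which drives growth and ribosome production, had 102, 112 and 116 CPM in the DPLG1 mutant libraries, against 166, 153 and 149 CPM in the control libraries (log2 fold change -0.50, SE 0.12, edgeR adjusted p = 0.240). Myc, a long transcript, stood at -0.076 with the length trend removed.

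So did the lists of structural genes of egg chambers. Of 35 actin and ring canal genes 9 had a positive value and 8 (22.9%, against 13.9% of all genes) lay apart below, with a median of -0.22. Src64B, a kinase needed for ring canal growth, had 221, 282 and 274 CPM in the DPLG1 mutant libraries, against 355, 340.5 and 356 CPM in the control libraries (log2 fold change -0.44, edgeR adjusted p = 0.269). Arpc1, a subunit of the Arp2/3 complex, had 35.7, 56.0 and 51.6 CPM in the DPLG1 mutant libraries, against 70.0, 76.2 and 99.4 CPM in the control libraries (log2 fold change -0.78, edgeR adjusted p = 0.269). Of 28 polarity and junction genes 8 were positive and 9 (32.1%, against the same 13.9%) lay apart below, with a median of -0.27. sdt, a partner of Crumbs, had 10.9, 9.79 and 9.74 CPM in the DPLG1 mutant libraries, against 13.7, 13.8 and 16.1 CPM in the control libraries (log2 fold change -0.52, edgeR adjusted p = 0.253), whereas alpha-Cat, which links cadherin to actin, had 455, 366 and 415 CPM in the DPLG1 mutant libraries, against 359, 343 and 304 CPM in the control libraries (log2 fold change 0.30, edgeR adjusted p = 0.276). Of 33 microtubule genes 10 were positive. With the length trend removed the 3 medians were -0.051, 0.035 and 0.011. Without DPLG1 mutant replicate 22 the actin median was -0.12, and without control replicate 3 the polarity median was -0.16.

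**Figure D5:**
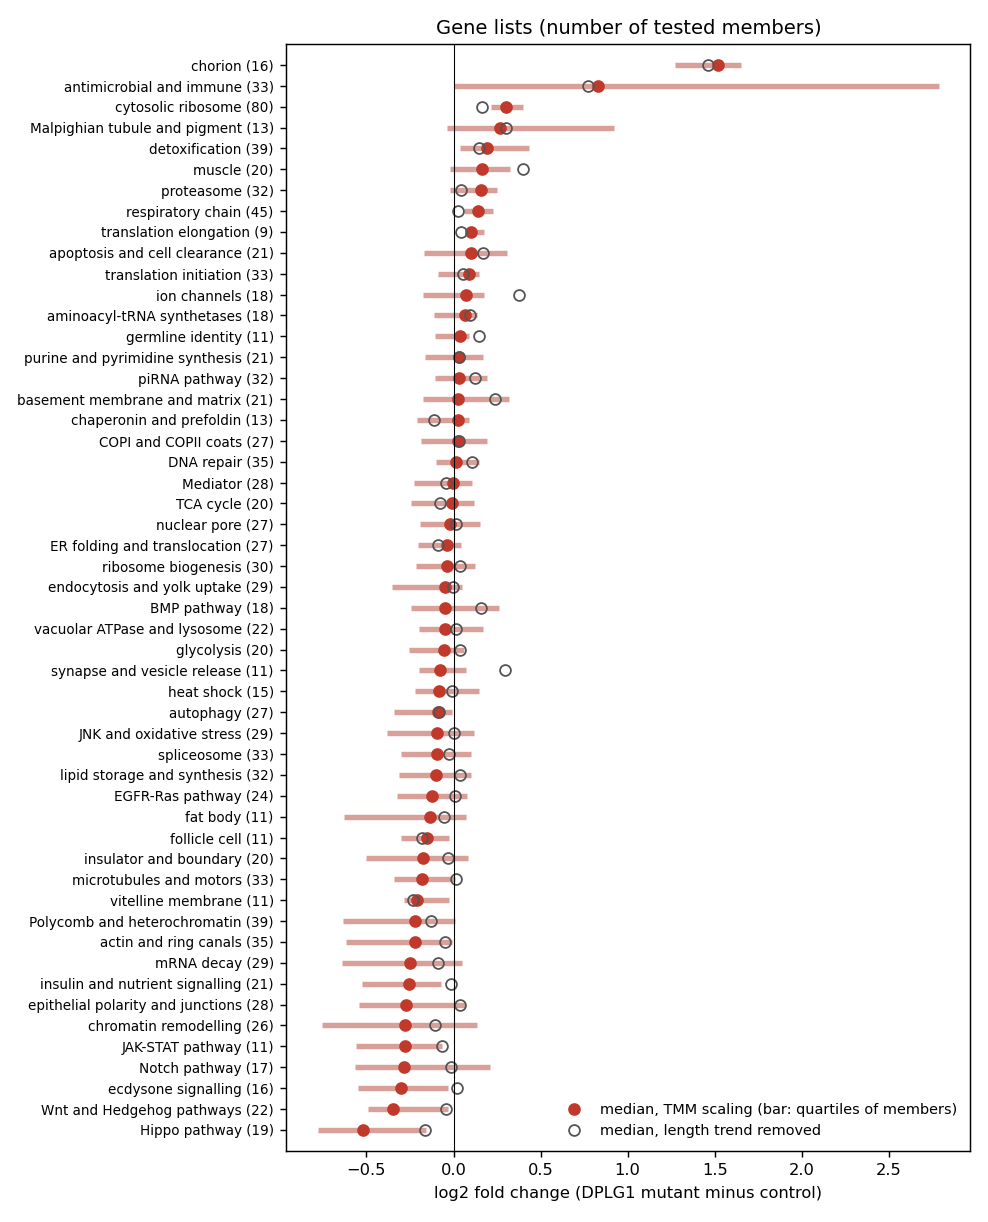
Median log2 fold change (DPLG1 mutant minus control) of the gene lists with at least 9 tested members, the gut list left out, with the number of tested members in brackets. Filled points are medians with TMM scaling, bars the quartiles of the members, and open points medians with the length trend removed. The chorion list lies at 1.52, the cytosolic ribosome at 0.30 and the Hippo pathway at -0.52.

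Apoptosis and repair genes held some of the genes above control. Of 21 apoptosis genes 11 were positive, with Drep4 called. Of them 8 (38.1%, against 15.8% of all genes) lay apart above and 2 (9.52%, against 13.9%) apart below. Dark, the adaptor that activates the initiator caspase, had 13.5, 12.4 and 9.72 CPM in the DPLG1 mutant libraries, against 6.65, 8.14 and 7.79 CPM in the control libraries (log2 fold change 0.66, SE 0.16, edgeR adjusted p = 0.235). drpr, the receptor by which follicle cells engulf dying germ cells, had 44.0, 49.2 and 49.3 CPM in the DPLG1 mutant libraries, against 58.1, 61.7 and 67.8 CPM in the control libraries (log2 fold change -0.40, edgeR adjusted p = 0.276), on the other side of control. Of 35 DNA repair genes 18 were positive and 9 (25.7%, against the same 15.8%) lay apart above, with a median of 0.017. p53 had 40.0, 34.1 and 36.4 CPM in the DPLG1 mutant libraries, against 31.3, 30.3 and 29.5 CPM in the control libraries (log2 fold change 0.28, edgeR adjusted p = 0.294). Of 27 autophagy genes 6 were positive, with a median of -0.091, and Atg3, which conjugates Atg8 to lipid, had 29.5, 33.8 and 42.2 CPM in the DPLG1 mutant libraries, against 58.2, 47.9 and 53.9 CPM in the control libraries (log2 fold change -0.60, edgeR adjusted p = 0.255).

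Of 39 detoxification genes 30 were positive and 10 (25.6%, against 15.8% of all genes) lay apart above, with a median of 0.19, or 0.12 without control replicate 3. Cyp6d2, a cytochrome P450, had 1.44, 1.23 and 2.31 CPM in the DPLG1 mutant libraries, against 0.384, 0.707 and 0.458 CPM in the control libraries (log2 fold change 1.62, edgeR adjusted p = 0.227). GstD2, a glutathione transferase, had 4.64, 3.10 and 4.22 CPM in the DPLG1 mutant libraries, against 2.004, 2.22 and 2.29 CPM in the control libraries (log2 fold change 0.88, edgeR adjusted p = 0.276). Of 33 immune genes 25 were positive, with a median of 0.83. But 4 (12.1%) lay apart above and 5 (15.2%) apart below, against 15.8% and 13.9% of all genes. The summed level had the other sign, with 1284, 1405 and 1387 CPM in the DPLG1 mutant libraries, against 1503, 1470 and 1545 CPM in the control libraries. AttA, an antimicrobial peptide gene, had 2.62, 0.364 and 2.22 CPM in the DPLG1 mutant libraries, against 0, 0.0107 and 0 CPM in the control libraries (edgeR adjusted p = 0.167), with the lowest mutant value in replicate 5. Without DPLG1 mutant replicate 7 the median of the list was 0.35. Heat shock genes had a median of -0.084, with 5 of 15 positive, and genes of JNK and oxidative stress a median of -0.10, with 9 of 29 positive.

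Metabolic lists lay close to all genes. The medians were -0.055 for 20 glycolysis genes, -0.0064 for 20 genes of the tricarboxylic acid cycle, -0.10 for 32 lipid genes, 0.031 for 21 nucleotide synthesis genes and -0.052 for 22 lysosomal genes. Gapdh2, a glycolytic dehydrogenase, had 2148, 2204 and 2152 CPM in the DPLG1 mutant libraries, against 1657, 1779 and 1770.5 CPM in the control libraries (log2 fold change 0.32, edgeR adjusted p = 0.265). Idh, an isocitrate dehydrogenase, had 719, 752 and 737 CPM in the DPLG1 mutant libraries, against 593, 614 and 609 CPM in the control libraries (log2 fold change 0.28, edgeR adjusted p = 0.269). The secretory and folding lists had medians of -0.035 for the endoplasmic reticulum, 0.023 for vesicle coats, -0.047 for endocytosis and 0.024 for the chaperonin.

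Of the marker lists of other tissues, that of the gut set 1 mutant library far above the controls. The sums of the fat body, muscle, hemocyte and testis lists separated the 2 groups. The 42 gut genes, of which 37 had a count, summed to 1.09, 2.36 and 85.8 CPM in the DPLG1 mutant libraries, against 1.41, 0.825 and 0.859 CPM in the control libraries. Of these 6 libraries DPLG1 mutant replicate 7 was high, and the DPLG4 mutant libraries summed to 20.3, 66.6 and 0.945 CPM. LysB, LysE, Jon25Bii, Jon25Biii and Jon65Aiii, a set of lysozyme and protease genes, had no count in any control library. yip7, a digestive protease, had 0.0592, 0.172 and 10.8 CPM in the DPLG1 mutant libraries, against 0, 0.0107 and 0 CPM in the control libraries (edgeR adjusted p = 0.276). Fat body genes summed to 168, 198 and 215 CPM in the DPLG1 mutant libraries, against 255, 227 and 248 CPM in the control libraries, without overlap. Of 11 tested members 4 (36.4%) lay apart below control, against 13.9% of all genes. Adh is among them but adds little to the sums, with 0.171, 0.407 and 0.343 CPM in the control libraries. Muscle genes summed to 873, 900.2 and 877 CPM in the DPLG1 mutant libraries, against 942, 951 and 948 CPM in the control libraries, also without overlap, although 14 of 20 tested muscle genes had a positive value and the median was 0.16, or -0.026 without DPLG1 mutant replicate 22. Hemocyte genes summed to 472, 436 and 456 CPM in the DPLG1 mutant libraries, against 400.5, 419 and 395 CPM in the control libraries, and testis genes to 295, 283 and 291 CPM in the DPLG1 mutant libraries, against 253, 274 and 269 CPM in the control libraries. Both sums were higher in every mutant library than in any control library, with 3 of 6 and 3 of 4 tested members positive. The lists of the Malpighian tubule and of the female tract overlapped between the groups, with 9 of 13 and 3 of 6 tested members positive. The part of other tissues in the results above was not tested.

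The title of the series names the nervous system beside the ovary. Of 11 synapse genes 3 had a positive value, with a median of -0.077, and of 18 ion channel genes 10 did, with a median of 0.069. Both are lists of long transcripts, and with the length trend removed the medians were 0.29, with the sign turned, and 0.38. Besides Ih, Itpr, the inositol trisphosphate receptor, had 6.06, 5.27 and 11.3 CPM in the DPLG1 mutant libraries, against 11.3, 15.5 and 18.9 CPM in the control libraries (log2 fold change -1.02, edgeR adjusted p = 0.276). Gabat, which breaks down the transmitter GABA, had 232, 203 and 206 CPM in the DPLG1 mutant libraries, against 168, 174 and 166 CPM in the control libraries (log2 fold change 0.33, edgeR adjusted p = 0.258). The defining neuronal genes elav and brp were at 0.959, 0.460 and 0.645 CPM and 0.225, 0.211 and 0.200 CPM in the DPLG1 mutant libraries, against 0.810, 0.525 and 0.343 CPM and 0.341, 0.129 and 0.114 CPM in the control libraries, and both overlapped. The 11 neuronal identity genes summed to 3.59, 2.59 and 2.94 CPM in the DPLG1 mutant libraries, against 3.28, 2.71 and 3.49 CPM in the control libraries. Basement membrane genes, of the ovariole sheath and follicle layer, had a median of 0.026, or 0.24 with the length trend removed.

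The direct comparison of DPLG1 with DPLG4 mutants took the controls only into the filter, the scaling and the shared estimate of the spread. It called 27 genes higher (0.320%) and 26 lower (0.309%), and 15.5% of genes did not overlap. Leaving out control replicate 2 or 3 gave 39 or 43 calls in place of 53. The comparison shares the DPLG1 mutant libraries with the comparison against control. bam had 65.3, 62.3 and 58.2 CPM in the DPLG1 mutant libraries, against 39.6, 36.1 and 30.7 CPM in the DPLG4 mutant libraries (log2 fold change 0.80, edgeR adjusted p = 0.0138). For the longest quintile of genes the median difference between the mutants was -0.21, for chromosome 4 it was 0.14 and for the cytosolic ribosome -0.089.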

How the data were processed

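The deposited files hold raw counts per gene, 1 file per library. Tools named in the submitters' processing notes are STAR 2.5, HTSeq, FastQC and DESeq2, and builds named there, with no role, are GRCh37 and BDGP6. The strand setting and the annotation release are not stated. Summary lines held 11.5% to 13.8% of reads in 8 libraries and 72.0% in control replicate 1, and were left out. Names and positions come from Ensembl release 115 (BDGP6.54); 306 identifiers had none.

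The fit used edgeR 4.0.16 (R 4.3.3, limma 3.58.1) on all gene counts (filterByExpr, TMM, robust quasi-likelihood test, group as the only term, all 9 libraries). A gene was called where its p, adjusted after Benjamini and Hochberg, was under 0.05. The SE is the log2 fold change over the square root of F. DESeq2 1.42.0 was an alternative. Length trends were removed by lowess offsets with a span of 0.3. The pipeline was tested on simulated data.

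Named genes were every call, the next 10 in each direction by p, the DPLG family and up to 4 members of each of 59 lists with the smallest p; 1 gene that this rule names is not reported here. Members and lists were chosen with earlier results of these data known. The floor of a library is 3 counts, which is 0.0358 to 0.0672 CPM in DPLG1 mutants and 0.032 to 0.166 CPM in controls. Intervals and floors cover counting error only. No test was run on lists.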

Additional observations from a re-analysis of the deposited data

Results flagged for a closer look

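For 13 named genes the difference between DPLG1 and DPLG4 mutants passed the edgeR test of that contrast, so that the effects of the mutants against the shared controls differed. CG12253 and CG7492 among them are the targeted genes, so their difference followed from the genotypes. CG7492 had 1.68, 1.52 and 1.52 CPM in the DPLG4 mutant libraries. The other genes were named for their difference from control, and both comparisons share the DPLG1 mutant libraries. The adjusted p was 6.52e-07 for CG12253, 3.05e-06 for CG7492, 0.000255 for Arc1 and 0.000968 for Arc2. It was 0.000291 for CG16957, 0.000828 for asRNA:CR45330, 0.00446 for Adh, 0.0135 for Drep4 and 0.0122 for FBgn0042174. Among genes not called against control it was 0.0138 for bam, 0.00543 for Idgf2, 0.0196 for dao and 0.000828 for CG2162.

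CG2162 had 36.1, 45.0 and 43.0 CPM in the DPLG1 mutant libraries, 98.0, 114 and 110.2 CPM in the DPLG4 mutant libraries and 64.3, 64.9 and 73.1 CPM in the control libraries, so that the mutants lay on opposite sides of the controls. Idgf2 did so in the other direction, with 81.6, 68.8 and 92.1 CPM in the DPLG1 mutant libraries, 33.0, 36.3 and 24.9 CPM in the DPLG4 mutant libraries and 47.8, 49.8 and 48.5 CPM in the control libraries. dao had 2.56, 3.77 and 5.21 CPM in the DPLG4 mutant libraries, a range that takes in the control values.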

How the results depend on the processing

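No paired analysis was possible because the title numbers of DPLG1 mutants (22, 5 and 7) and controls (1, 2 and 3) share none. Genes called higher (5) numbered 11 with the length trend removed and 129 under DESeq2, and 3 to 7 when a library was left out (3 without DPLG1 mutant replicate 22 or 5, DPLG4 mutant replicate 3 or control replicate 2 or 3). Genes called lower (4) numbered 7 with no filter, 8 with the length trend removed and 146 under DESeq2, and 3 to 12 when a library was left out, with 12 without DPLG1 mutant replicate 7 and 8 without DPLG4 mutant replicate 7. Genes apart above control (1335) ranged from 1352 to 3030 when a library was left out, and those apart below (1173) from 1179 to 2476. Both were highest without control replicate 1, and 2042 lay apart above without DPLG1 mutant replicate 5. With fewer libraries in a compared group an absence of overlap is easier to meet, so a rise was fixed by the design. Without a DPLG4 mutant library, which leaves both compared groups whole, the counts were 1352 to 1403 above and 1179 to 1181 below. With the length trend removed and without control replicate 1, chosen after seeing the data, genes apart above and below numbered 2587 and 2257. Calls between the mutants (53) numbered 100 with the length trend removed, 230 under DESeq2, 111 in the added setting and 24 to 51 when a library was left out, with 24 without DPLG1 mutant replicate 22 and 30 without DPLG1 mutant replicate 5 or DPLG4 mutant replicate 3. The cytosolic ribosome median was 0.123 in the added setting. The X median was 0.0418 with upper quartile scaling, and that of chromosome 4 was 0.411 with the length trend removed, 0.591 in the added setting and 0.101 to 0.287 when a library was left out, lowest without DPLG1 mutant replicate 22. The median of the longest quintile was 0.0338 and 0.0416 in those 2 settings, which take out the length trend by construction. The cause of the other changes was not tested. Control replicates 1 and 3 were the shallowest libraries, which limits what they can show of weakly expressed genes.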

Other observations

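At the right end of arm 2R, from 25 to 26 Mb (BDGP6.54), 5 genes were tested and in all 5 the DPLG1 mutant libraries did not overlap the control libraries. This stretch was chosen after its values were seen, and none of its genes was called. lov, a BTB-domain gene, had 0.568, 0.153 and 2.73 CPM in the DPLG1 mutant libraries, 1.42, 0.497 and 3.15 CPM in the DPLG4 mutant libraries and 14.5, 18.5 and 23.2 CPM in the control libraries (edgeR adjusted p = 0.229 for DPLG1 mutants). CG9380 had 7.45, 1.95 and 28.4 CPM in the DPLG1 mutant libraries, 23.0, 6.19 and 17.5 CPM in the DPLG4 mutant libraries and 96.0, 117 and 104 CPM in the control libraries (edgeR adjusted p = 0.266). CG30428, which overlaps CG9380 on the other strand, had 3.196, 1.05 and 10.98 CPM in the DPLG1 mutant libraries and 41.6, 29.0 and 28.5 CPM in the control libraries (edgeR adjusted p = 0.240). gol, a ubiquitin ligase gene, had 0.355, 0.172 and 0.645 CPM in the DPLG1 mutant libraries, 0.511, 0.155 and 0.394 CPM in the DPLG4 mutant libraries and 2.43, 3.16 and 2.98 CPM in the control libraries (edgeR adjusted p = 0.134). In these 4 genes both mutants were below every control, and the mutant libraries differed widely among themselves. uzip, a cell adhesion gene at the left of this stretch, had 19.7, 19.2 and 15.9 CPM in the DPLG1 mutant libraries and 12.9, 14.6 and 13.8 CPM in the control libraries.

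Among all genes of the files, 70 had a count in every DPLG1 mutant library and none in a control library, 4 of which were tested, and 6 had the reverse pattern, none of which was tested. Most of these counts were small, and several genes were chosen here after their values were seen. Control replicates 1 and 3 held 22289241 and 18078883 counts, against 44654859 to 83830254 in the DPLG1 mutant libraries and 93767502 in control replicate 2. A weak gene is therefore harder to count in every control library, so the numbers 70 and 6 cannot be set against each other. Among the 70, CG6295 (1, 1 and 140 counts) and the gut gene Jon25Biii (5, 11 and 50) were highest in DPLG1 mutant replicate 7. CR43275, a pseudogene of arm 2R, was counted 35, 17 and 10 times in the DPLG1 mutant libraries and never in the control libraries, and DIP-kappa, an immunoglobulin-domain receptor of arm 2L, was counted 24, 6 and 3 times in the DPLG1 mutant libraries and never in the control libraries. In the other direction, lncRNA:CR45994 had 0 counts in each DPLG1 mutant library, against 10, 8 and 2 counts in the control libraries. snRNA:U5:35D had 0 counts in each DPLG1 mutant library, against 3, 7 and 2 counts in the control libraries. A count of 0 allows up to 0.0358, 0.0584 and 0.0672 CPM in the DPLG1 mutant libraries and up to 0.135, 0.032 and 0.166 CPM in the control libraries.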
